A study of Solanum tuberosum with 12 samples.

Results

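Transcripts that carry an auxin name were followed in the leaves of heat-grown potato. They are the transcripts in the deposited tables of heat-regulated genes, united over 3 and 8 weeks by transcript name, whose product description holds, ignoring case, auxin, indole-3-acetic, IAA or PIN before a digit, SAUR, GH3 or Aux/IAA. This gave 58 of the 6438 transcripts listed, 10 of 1447 at 3 weeks and 51 of 5571 at 8 weeks, with 3 at both ages. By product name, 29 were SAURs, 9 were GH3 amido synthetases, 4 were auxin:hydrogen symporters and 3 were auxin response factors. Of the rest, 1 was an auxin efflux carrier and 1 was an auxin-repressed or dormancy-associated protein. The last 11 had other auxin names, among them an auxin-independent growth promoter.

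RNA came from the upper 5 leaves of Solanum tuberosum cultivar Desiree, a potato variety multiplied as plantlets in culture and then moved to soil. In soil, all plants had days of 12 h light and 12 h darkness. Day and night temperatures were 22 °C and 16 °C for the NT groups and 35 °C and 29 °C for the HT groups, over 3 weeks or 8 weeks. Each of the 4 groups had 3 libraries made from poly(A) RNA with the strand kept. The labels do not say whether the libraries of a group came from separate plants, and a p-value here reflects only how these libraries spread, which may be technical.

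Auxin is the plant hormone that sets cell expansion, vascular pattern and the outgrowth of organs. At high auxin, the Aux/IAA repressors are degraded and the auxin response factors that they held are free to act on target genes, among which SAUR, GH3 and Aux/IAA genes are the classical early ones. SAUR proteins promote cell expansion by keeping the plasma membrane proton pump active, GH3 enzymes join the hormone to amino acids and so lower its free pool, and carriers in the membranes move it between cells and compartments. In Arabidopsis seedlings, warmth raises auxin synthesis and SAUR expression during the elongation of stems and petioles.

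Library totals lay between 52514661 and 66602938 counts. The tables hold selected transcripts only: the smallest absolute log2 change in the authors' deposited table was 1.5 at either age, and the largest unadjusted p-value was 0.00992 at 3 weeks and 0.00994 at 8 weeks. The HT against NT contrast had therefore already chosen the transcripts, so their calls in that contrast describe the listed genes and are no independent evidence of a change. A gene missing at an age was not listed there, which does not show that it was unchanged. Levels are given as CPM, counts scaled to the library total with the scaling of the authors' fold changes, or as RPKM where genes are compared with each other. RPKM divides by transcript length and uses library totals alone, without that scaling. HT to NT ratios are therefore higher in RPKM than in CPM, 1.32-fold at 3 weeks and 1.07-fold at 8 weeks. Rose and fell refer to edgeR's quasi-likelihood test with a Benjamini-Hochberg adjusted p under 0.05 over all transcripts tested at that age, and log2 changes are HT over NT with their standard error. In bulk leaf RNA, fewer cells of a type and less RNA per cell cannot be told apart.

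At 8 weeks the auxin-named transcripts went both ways, with GH3 enzymes mostly lower at HT, all 3 auxin response factors higher, and SAURs and symporters split. Of the 51 listed, 46 passed the filter on low counts; 25 rose, 20 fell and 1 was not called. Over all listed transcripts 59.2% of those tested rose and 38.0% fell, which made 97.3% called. Adjusted over all 34088 transcripts the authors tested, 13 auxin-named transcripts were called higher and 10 lower, beside 1781 and 1184 of all listed transcripts. The 3 HT libraries lay all above the 3 NT libraries for 28 of the 51 and all below for 20, against 57.3% and 36.2% of all listed transcripts, 93.5% in all. The median log2 change was 1.76 for the auxin-named transcripts tested and 1.79 for all listed transcripts tested, and the medians of the absolute change were 2.76 and 2.50. With DESeq2 size factors, which are estimated from the listed transcripts alone, the auxin-named calls were 8 higher and 20 lower and those of all listed transcripts 1179 higher and 2102 lower, beside 3066 and 1969 with the scaling used here. The DESeq2 size factors moved the median log2 change of all listed transcripts tested from 1.79 to 0.47.

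**Figure D1:**
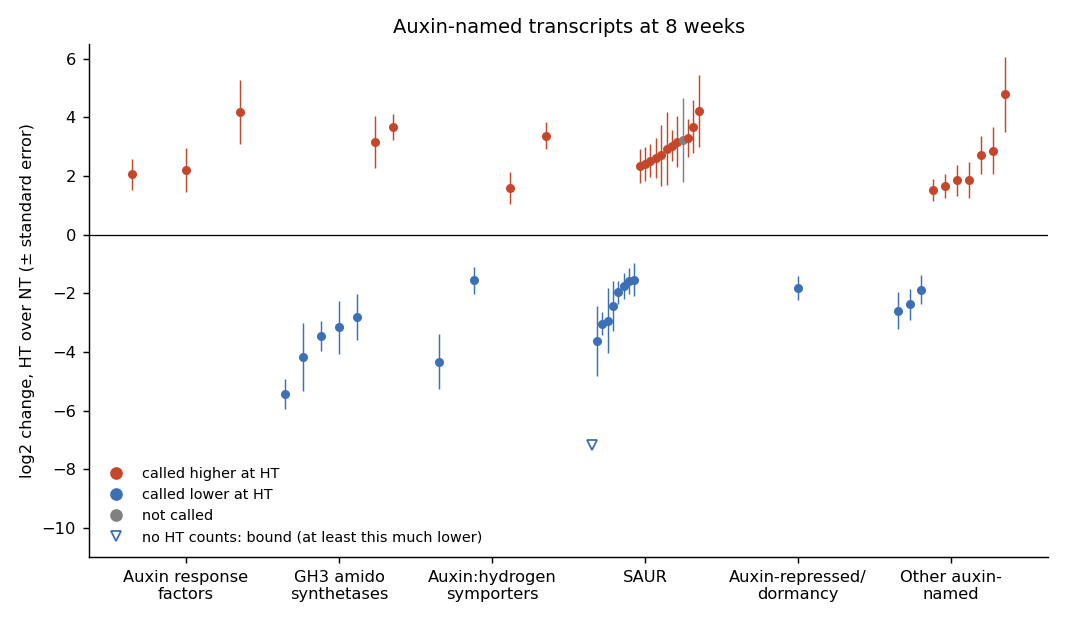
Fitted log2 change of HT over NT at 8 weeks (vertical axis, bars ± standard error) for the auxin-named transcripts tested, grouped by product name along the horizontal axis and ordered by value within a group. The auxin response factors lie above 0, GH3 enzymes and SAURs fall on both sides, and the open triangle marks the lower bound in size of a SAUR with no counts at HT.

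Levels per transcript length spanned a wide range and a handful of genes held most of the signal. The summed RPKM of the 51 transcripts was 2174 ± 279 at NT and 844 ± 97.3 at HT (SD, n = 3). The auxin-repressed or dormancy-associated protein held 56.9% of that sum at NT and 44.4% at HT. At NT, the next in order was the indole-3-acetic acid-induced protein ARG7 at 340 ± 50.5 RPKM, and most other transcripts were below 100 RPKM.

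**Figure D2:**
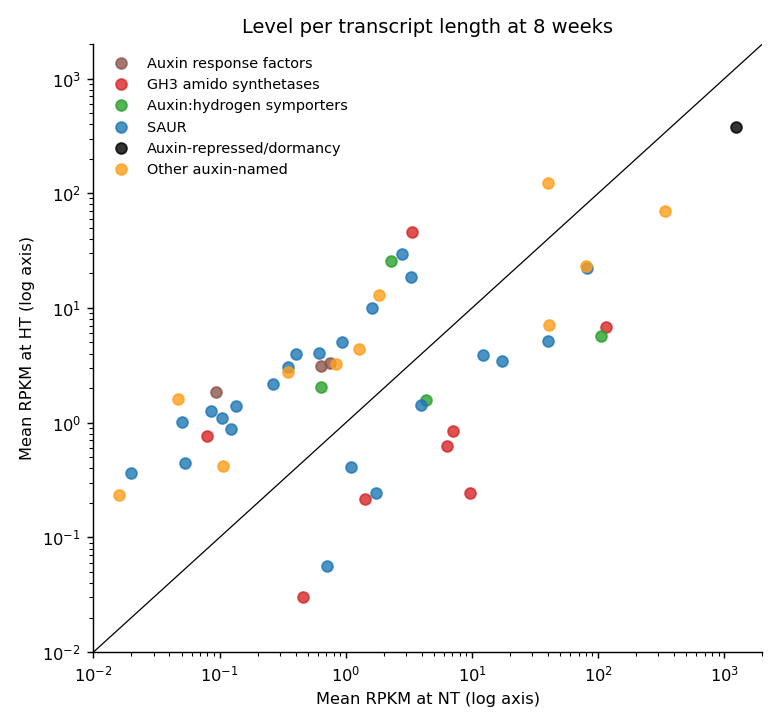
Mean RPKM at NT (horizontal axis) and at HT (vertical axis) for auxin-named transcripts at 8 weeks, both on log axes, coloured by product group, with the line of equal level; the SAUR with no counts at HT is not drawn. The auxin-repressed or dormancy-associated protein stands at the top right, below the line.

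The auxin response factors, which bind auxin response elements in target promoters, were listed at 8 weeks only. All 3 rose, as did 59.2% of all listed transcripts tested. Auxin response factor 9 (PGSC0003DMG400012261) was at 1.88, 2.16 and 2.18 CPM in the NT libraries and 14.2, 4.68 and 7.13 CPM in the HT libraries. Every HT library was above every NT library, and HT library 1 was the highest. This gave a log2 change of 2.06 ± 0.53 (edgeR, adjusted p = 0.00702). Auxin response factor ARF16 (PGSC0003DMG400017585), whose Arabidopsis counterpart is a target of the microRNA miR160, was at 0, 0.0814 and 0.199 CPM at NT and 0.622, 2.58 and 1.99 CPM at HT. Here HT library 1 was the lowest of the HT libraries, and the groups again did not overlap. It changed by 4.17 ± 1.08 on the log2 scale (edgeR, adjusted p = 0.00751), and by 5.28 without NT library 3.

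Auxin response factor 5 (PGSC0003DMG400003771), the counterpart of Arabidopsis MONOPTEROS that acts in vascular and organ initiation, was at 2.33, 3.17 and 2.27 CPM at NT and 26.3, 5.55 and 3.81 CPM at HT. All HT libraries were above all NT libraries, but HT library 1 carried most of the difference. It had a log2 change of 2.20 ± 0.75 (edgeR, adjusted p = 0.0204). Without HT library 1 it was 0.85 with an adjusted p of 0.0725, so the call was lost, as it was without NT library 1 or NT library 3. With DESeq2 size factors the 3 log2 changes were 0.69, 3.08 and 0.75 for factors 9, 16 and 5, and ARF16 alone was called.

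GH3 enzymes, which conjugate indole-3-acetic acid to amino acids, mostly fell at 8 weeks while a GH3.5 transcript rose to become the leading member. Of 8 listed, 7 were tested, 5 fell and 2 rose, beside 38.0% and 59.2% of all listed transcripts tested. Amido synthetase GH3.3 (PGSC0003DMG400026683) was at 25.3, 15.8 and 21.1 CPM at NT and 0.555, 0.333 and 0.551 CPM at HT. The groups were far apart and the libraries within each were close. The log2 change was -5.43 ± 0.51, a 43.2-fold lower mean at HT (edgeR, adjusted p = 0.000491). A second GH3.3 transcript (PGSC0003DMG400024978) was at 14.5, 16.7 and 9.01 CPM at NT and 1.67, 0.913 and 1.09 CPM at HT, without overlap, a log2 change of -3.46 ± 0.50 (edgeR, adjusted p = 0.0014).

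The GH3.6 transcripts varied strongly between NT libraries. GH3.6 (PGSC0003DMG400019274) was at 135, 629 and 14.2 CPM at NT and 22.2, 9.62 and 11 CPM at HT. NT library 2 was far above the other libraries, and NT library 3 was below HT library 1, so the groups overlapped. This gave a log2 change of -4.18 ± 1.16 (edgeR, adjusted p = 0.0096), and -2.38 without NT library 2. The other GH3.6 transcript (PGSC0003DMG400021803) was at 6.45, 32.7 and 6.52 CPM at NT and 3.43, 0.797 and 0.875 CPM at HT. NT library 2 was again the highest and the groups did not overlap. On the log2 scale it changed by -3.16 ± 0.89 (edgeR, adjusted p = 0.0101), -1.93 without NT library 2 and -4.18 without HT library 1.

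The GH3.5 transcript (PGSC0003DMG400021676), whose Arabidopsis namesake also acts on salicylic acid, was at 8.68, 5.58 and 5.96 CPM at NT and 111, 61.8 and 86.1 CPM at HT. All HT libraries were several-fold above all NT libraries. The log2 change was 3.68 ± 0.43, a 12.8-fold higher mean (edgeR, adjusted p = 0.000814). A transcript named indole-3-acetic acid amido synthetase (PGSC0003DMG400013024) was at 0.197, 0.0651 and 0.108 CPM at NT and 2.32, 0.377 and 0.615 CPM at HT, highest in HT library 1. Its log2 change was 3.15 ± 0.89 (edgeR, adjusted p = 0.01) and 2.00 without HT library 1. An auxin and ethylene responsive GH3 (PGSC0003DMG400014519) had too few counts to be tested, at 0.316, 0.423 and 0.0902 CPM at NT and 0.0505, 0 and 0 CPM at HT.

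Per transcript length, GH3.5 led in every HT library, while the leading GH3 differed between NT libraries. Summed GH3 RPKM was 87.9, 316 and 29.1 in the NT libraries and 74.6, 39.1 and 53.5 in the HT libraries, so the sums of the groups overlapped. GH3.6 (PGSC0003DMG400019274) held 80.3% of the summed level over the NT libraries, at 116 ± 146 RPKM against 6.87 ± 3.32 RPKM at HT (SD, n = 3). That share rested on NT library 2, at 281 RPKM: GH3.6 led in NT libraries 1 and 2 with 68.8% and 88.9% of the sum, but held 21.8% in NT library 3, where GH3.3 (PGSC0003DMG400026683) led with 33.9%. GH3.5 (PGSC0003DMG400021676) held 82.8% at HT, at 46.1 ± 13.1 RPKM against 3.36 ± 0.844 RPKM at NT.

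**Figure D3:**
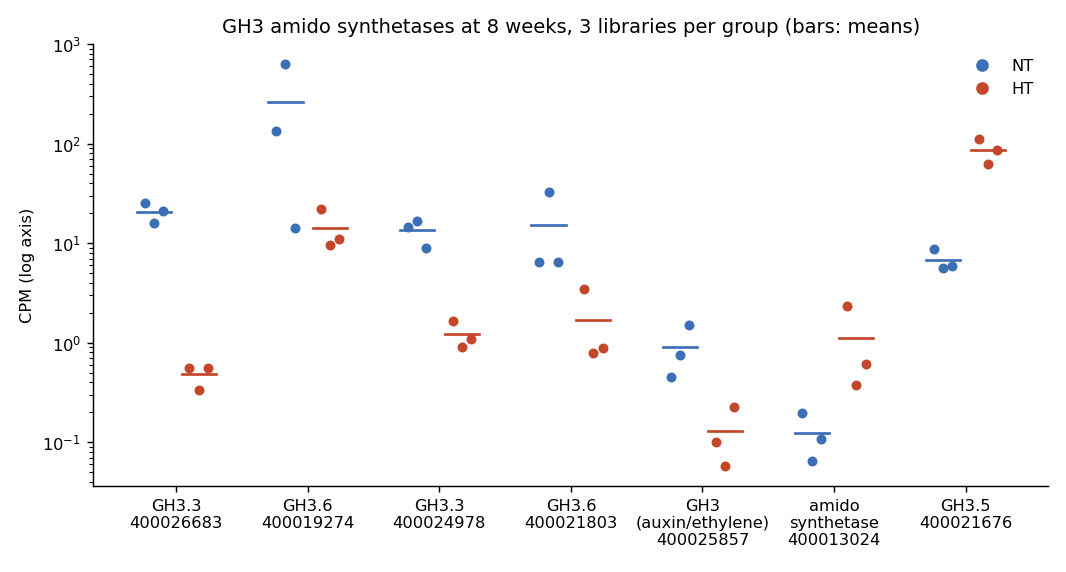
CPM on a log axis (vertical) of the 7 GH3 transcripts tested at 8 weeks (horizontal, with the end of the gene identifier); points are libraries, 3 per group, and horizontal bars are group means. The 5 transcripts on the left lie lower at HT, with NT library 2 at 629 CPM for GH3.6, and the 2 on the right lie higher.

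The auxin:hydrogen symporters, named for moving auxin together with protons across membranes, split evenly at 8 weeks. At HT 2 were lower and 2 higher, beside 38.0% and 59.2% of all listed transcripts tested. The most abundant (PGSC0003DMG400013649) was at 336, 191 and 245 CPM at NT and 1.77, 7.74 and 28.9 CPM at HT. The NT libraries were close to each other, while the HT libraries ranged widely and all stayed below NT. This gave a log2 change of -4.33 ± 0.94 (edgeR, adjusted p = 0.00405), and -5.76 in the fit that left out HT library 3. Symporter PGSC0003DMG400018668 moved the other way, from 2.8, 2.88 and 4.33 CPM at NT to 24.5, 48 and 31.4 CPM at HT, without overlap, a log2 change of 3.37 ± 0.46 (edgeR, adjusted p = 0.00127).

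The remaining symporters changed less. PGSC0003DMG400018678 was at 9.26, 7.37 and 5.45 CPM at NT and 1.7, 2.84 and 3 CPM at HT, lower in every HT library (log2 change -1.55 ± 0.46, edgeR adjusted p = 0.0123). PGSC0003DMG400017870 was at 0.829, 1.38 and 0.541 CPM at NT and 2.37, 2.58 and 3.32 CPM at HT, higher in every HT library (log2 change 1.58 ± 0.55, edgeR adjusted p = 0.0222). The call of this last gene was lost without HT library 3, NT library 1 or NT library 3 and with DESeq2 size factors, where its log2 change was 0.32. Per length, the leading symporter at NT was PGSC0003DMG400013649 with 106 ± 30 RPKM, 93.6% of the summed symporter level, and at HT it was PGSC0003DMG400018668 with 25.6 ± 8.93 RPKM, 73.4% of the sum.

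SAUR transcripts formed the largest group and went both ways. The median level of those that fell was 4.29 RPKM at NT and 1.41 RPKM at HT, and that of those that rose was 0.406 and 4.01 RPKM. Over all listed transcripts these medians were 16.0 and 3.01 RPKM for those that fell, and 0.458 and 3.51 RPKM for those that rose. Splitting by call sets the direction of such medians. Of 24 SAURs listed at 8 weeks, 21 were tested, 11 rose, 9 fell and 1 was not called. The shares that rose and fell, 52.4% and 42.9%, were near the 59.2% and 38.0% of all listed transcripts tested. Without NT library 2, 5 were called lower. SAUR genes form families of short and similar sequences, and how reads that match several of them were counted is not given in the sources used here, so values of close members are uncertain. Listed SAURs were 390 to 1470 nt long with a median of 643 nt, against 1256 nt for all listed transcripts. The summed SAUR level was 173 ± 29.1 RPKM at NT and 120 ± 27.8 RPKM at HT (SD, n = 3), and the ranges of the libraries overlapped.

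Among the SAURs that fell, PGSC0003DMG400042301 was at 3.26, 1.37 and 2.22 CPM at NT and had no counts in any HT library. Set against a floor of 3 counts over the HT group, its NT mean was at least 145-fold higher (edgeR, adjusted p = 0.00127). PGSC0003DMG400001609 was at 19.2, 19.6 and 22.9 CPM at NT and 2.44, 2.55 and 2.51 CPM at HT. Its libraries were nearly level within each group, and its log2 change was -3.04 ± 0.39 (edgeR, adjusted p = 0.00111). PGSC0003DMG400001274 was at 1.2, 2.18 and 2.78 CPM at NT and 0.0336, 0.0435 and 0.729 CPM at HT, with HT library 3 well above the other HT libraries. It had a log2 change of -2.93 ± 1.12 (edgeR, adjusted p = 0.0309), -5.65 without HT library 3, and the call was lost without HT library 1 or 2 or NT library 2 or 3. PGSC0003DMG400028254 was at 0.671, 0.651 and 0.235 CPM at NT and 0, 0.116 and 0 CPM at HT, all HT libraries below all NT libraries. On the log2 scale it changed by -3.62 ± 1.18 (edgeR, adjusted p = 0.0176), lost without NT library 1 or NT library 2, and -7.91 without HT library 2, where no HT counts remained.

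The other SAURs that fell had log2 changes from -2.43 to -1.53. They included the SAUR with the highest level, PGSC0003DMG400030234, at 81 ± 21.3 RPKM at NT and 22.4 ± 4.94 RPKM at HT (SD, n = 3; log2 change -1.96 ± 0.40), which held 46.8% of the summed SAUR level at NT. PGSC0003DMG400003228 was at 6.49, 20.6 and 8.77 CPM at NT and 0.488, 1.39 and 4.78 CPM at HT, a log2 change of -2.43 ± 0.85. HT library 3 was close to the NT range, though the groups did not overlap.

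Among the SAURs that rose, PGSC0003DMG400001668 had the highest mean level at HT, 24.6% of the summed SAUR RPKM. It led in HT libraries 1 and 2, while PGSC0003DMG400030234, which fell, led in HT library 3 and, at 25.1 against 18.4 RPKM, in the mean without HT library 1. It was at 1.48, 1.19 and 2.35 CPM at NT and 28.7, 14.2 and 6.17 CPM at HT. Every HT library exceeded every NT library, with HT library 1 the highest and HT library 3 the lowest of the HT group. Its log2 change was 3.29 ± 0.65 (edgeR, adjusted p = 0.00309), and 2.61 without HT library 1. PGSC0003DMG400013373 went from 0, 0.0651 and 0.0722 CPM at NT to 0.942, 0.536 and 0.405 CPM at HT (log2 change 3.69 ± 0.91, edgeR adjusted p = 0.00637). PGSC0003DMG400015034 went from 0.0789, 0 and 0 CPM to 0.959, 0.261 and 0.259 CPM (log2 change 4.20 ± 1.23, edgeR adjusted p = 0.0115). Both were near the limit of detection at NT, and the change of PGSC0003DMG400015034 was 3.29 without HT library 1, 3.60 without NT library 2 and, with no NT counts left, 7.92 in a fit without NT library 1. PGSC0003DMG400016564, at 0, 0 and 0.271 CPM at NT and 1.75, 0.666 and 0.162 CPM at HT, overlapped and was not called (log2 change 3.22 ± 1.44, edgeR adjusted p = 0.0551). It was called without HT library 3 (3.71) and without NT library 3 (8.70, with no NT counts left), and was 2.18 without HT library 1 and 2.63 without NT library 2.

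The remaining SAURs that rose had log2 changes from 2.34 to 3.17, and with DESeq2 size factors 3 SAURs were called higher and 9 lower. The 3 SAURs too scarce to test were above all NT libraries in every HT library, as were 57.3% of all listed transcripts. SAURs with identifiers close in number partly shared a direction and partly did not: PGSC0003DMG400001607 and PGSC0003DMG400001609 fell while PGSC0003DMG400001613 and PGSC0003DMG400001614 rose, and PGSC0003DMG400003226 and PGSC0003DMG400003227 rose while PGSC0003DMG400003228 fell. PGSC0003DMG400003226 was at 0.474, 0.325 and 0.325 CPM at NT and 3.09, 2.58 and 3.5 CPM at HT, and PGSC0003DMG400003227 at 1.14, 0.83 and 1.5 CPM and 4.78, 4.27 and 11 CPM. Whether such genes lie side by side on a chromosome was not analysed here.

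HT library 1 at 8 weeks stood apart in the size of the changes, for SAURs as for all listed transcripts. The SAURs that rose had a median log2 level over the NT mean of 2.96, 2.13 and 1.82 in HT libraries 1, 2 and 3, and those that fell had -2.63, -1.84 and -1.56. The same medians for all listed transcripts were 2.63, 1.83 and 2.01 for those that rose. For those that fell they were -3.03, -2.28 and -1.88. Of the 11 that rose, 9 were highest in HT library 1 (81.8%, against 68.5% of all listed transcripts that rose), and the 9 that fell were all lowest there, ties at 0 counted (against 77.2% of all listed transcripts that fell). The 72 listed cyclin, kinesin and histone transcripts, which mark dividing cells, were higher in HT library 1 too: their summed level was 1328, 448 and 433 CPM in the HT libraries and 130, 138 and 176 CPM at NT, and 69 rose and 0 fell. The 39 listed leaf mesophyll transcripts, those of photosystems, chlorophyll binding and ribulose bisphosphate carboxylase, summed to 66798, 29376 and 34027 CPM at HT and 9426 to 10699 CPM at NT, and 39 rose. Sums of the vascular list (1149, 1195 and 1276 CPM at HT, 18 rose and 9 fell) were not highest in HT library 1. Nor were those of the trichome or epidermis list (1638, 2158 and 1662 CPM, 21 rose and 4 fell). By median log2 level over the NT mean, both lists were highest there, at 2.22, 1.41 and 1.82 and at 2.68, 2.18 and 2.66. The part of these differences in the SAUR and auxin response factor values was not tested.

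**Figure D4:**
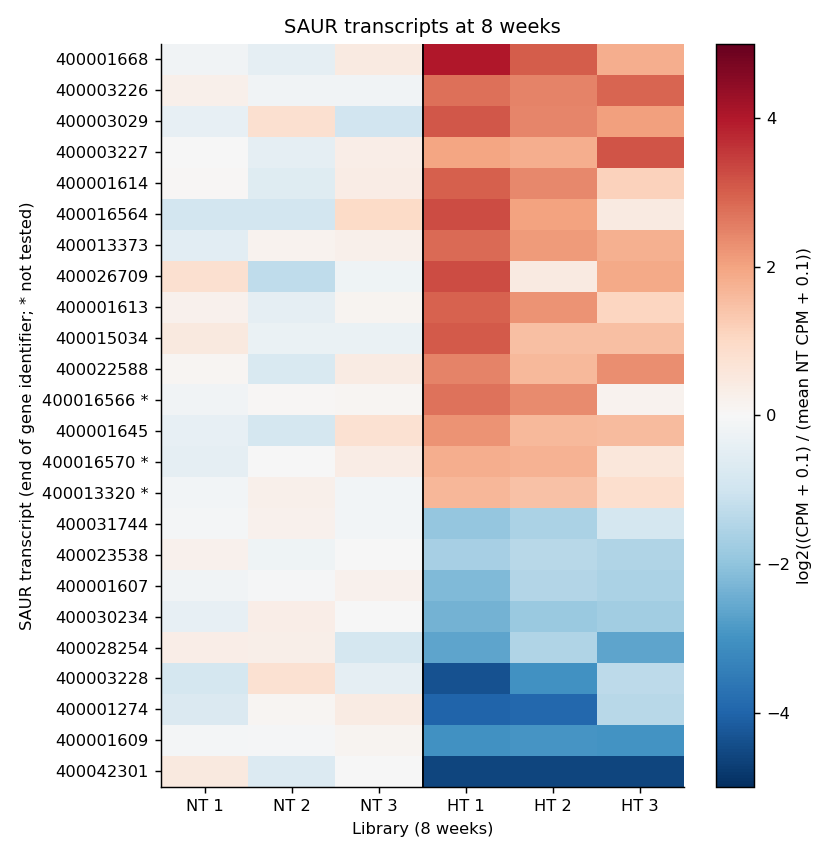
Colour shows the log2 ratio of each library's CPM to the NT mean (0.1 CPM added to both) for the 24 SAUR transcripts listed at 8 weeks, ordered by mean change, with 3 NT and 3 HT libraries in columns; a star marks the 3 transcripts not tested. The upper transcripts are red in HT columns and the lower ones blue, with the strongest colours mostly in HT library 1.

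The auxin-repressed or dormancy-associated protein (PGSC0003DMG400029732), a type of protein whose transcript is typically high in buds and tissues that are not growing, fell from the highest level of all auxin-named transcripts. It was at 657, 914 and 1117 CPM at NT and 190, 253 and 315 CPM at HT, with all HT libraries below all NT libraries. It had a log2 change of -1.83 ± 0.41 (edgeR, adjusted p = 0.00462), and its level was 1237 ± 318 RPKM at NT and 375 ± 93 RPKM at HT (SD, n = 3). Transcripts of the senescing leaf list were also lower at HT in sum, at 3550, 3421 and 1328 CPM at NT and 300, 522 and 449 CPM at HT. However, 8 of its 15 members rose and 7 fell, with a median log2 change of 1.65. Among the NT libraries that sum was lowest in NT library 3, where the auxin-repressed or dormancy-associated protein was highest. The part of leaf age or senescence in this value was not tested.

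Of the 11 transcripts with other auxin names, 7 rose, 3 fell and 1 was not tested. Of the 10 tested, 70.0% rose and 30.0% fell, beside 59.2% and 38.0% of all listed transcripts tested. ARG7 (PGSC0003DMG400022233), named after a mung bean SAUR, was at 329, 244 and 282 CPM at NT and 21.5, 74.2 and 69.8 CPM at HT. The groups were well separated and HT library 1 was the lowest, with a log2 change of -2.37 ± 0.52 (edgeR, adjusted p = 0.00438). X10A, named after a soybean SAUR, was listed as a pair of genes that went opposite ways. PGSC0003DMG400026010 was at 98.3, 87.2 and 55.4 CPM at NT and 10.1, 27.8 and 27.6 CPM at HT (log2 change -1.88 ± 0.49, edgeR adjusted p = 0.00791). PGSC0003DMG400004785 was at 0.651, 0.732 and 1.12 CPM at NT and 2.07, 2.88 and 4.1 CPM at HT (log2 change 1.85 ± 0.54, edgeR adjusted p = 0.011). Neither gene overlapped between groups. Auxin-induced protein 6B (PGSC0003DMG400035783), also named after a soybean SAUR, was at 0, 0.0651 and 0 CPM at NT and 1.5, 0.304 and 0.275 CPM at HT (log2 change 4.78 ± 1.27, edgeR adjusted p = 0.00824; 3.53 without HT library 1, and 8.36 without NT library 2, where no NT counts remained). With these 4 genes added to the SAURs, a grouping made after their values were seen, 25 of 28 were tested, 13 rose and 11 fell.

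Both transcripts with names that point to Aux/IAA repressors rose, as did 59.2% of all listed transcripts tested. The planned grouping by name gave no Aux/IAA group, so this pair was put together after their values were seen. Auxin-induced protein AUX22 (PGSC0003DMG400002636), an Aux/IAA name from soybean and mung bean, was at 0.257, 0.0976 and 0.614 CPM at NT and 3.83, 1.39 and 1.86 CPM at HT. All HT libraries were above all NT libraries, and the log2 change was 2.87 ± 0.80 (edgeR, adjusted p = 0.00963; 0.0834 with DESeq2 size factors), and 3.73 without NT library 3. The transcript named auxin/indole-3-acetic acid (PGSC0003DMG400016280) was at 0.967, 1.27 and 3.07 CPM at NT and 15.3, 5.21 and 14.2 CPM at HT, with no overlap and a log2 change of 2.71 ± 0.64 (edgeR, adjusted p = 0.00563), or 3.37 without NT library 3.

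Auxin-induced beta-glucosidase (PGSC0003DMG400022933), named for a glycoside hydrolase, was at 100, 217 and 41.3 CPM at NT and 27.9, 15.2 and 16 CPM at HT. NT library 2 was the highest and the groups did not overlap. On the log2 scale it changed by -2.60 ± 0.63 (edgeR, adjusted p = 0.00599), and -1.84 without NT library 2. The auxin growth promotor protein (PGSC0003DMG400016201) was at 89.8, 74.1 and 99.6 CPM at NT and 287, 197 and 271 CPM at HT, higher in every HT library (log2 change 1.52 ± 0.37, edgeR adjusted p = 0.0059). An auxin-independent growth promoter (PGSC0003DMG403004568) was at 0.296, 0.244 and 0.144 CPM at NT and 1.23, 0.695 and 0.583 CPM at HT (log2 change 1.86 ± 0.62, edgeR adjusted p = 0.0185), a call lost without HT library 1 or NT library 3. An auxin-regulated protein (PGSC0003DMG400000416) rose from 1.28 ± 0.19 to 4.37 ± 0.682 RPKM (SD, n = 3). The auxin-induced in root cultures protein 12 (PGSC0003DMG400020110) was too scarce to test, at 0.0197, 0.0163 and 0 CPM at NT and 0.151, 0.145 and 0.194 CPM at HT.

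At 3 weeks the tables held far fewer auxin-named transcripts, and all SAURs that were called were lower at HT. Of 10 listed, 8 were tested, 3 rose and 5 fell, beside 60.3% and 37.2% of all listed transcripts tested, which made 97.5% called. Without NT library 3, 3 were called lower. Adjusted over all 33777 transcripts the authors tested, 0 auxin-named transcripts were called higher and 0 lower, beside 162 and 121 of all listed transcripts. The HT libraries lay all above the NT libraries for 4 of the 10 and all below for 4, against 59.4% and 30.5% of all listed transcripts, 89.8% in all. The median log2 change of those tested was -1.83, and 1.66 for all listed transcripts tested. With DESeq2 size factors, 0 auxin-named transcripts rose and 4 fell, among 155 and 507 of all listed transcripts against 772 and 476 with the scaling used here, and the median log2 change of all listed transcripts tested was 0.43.

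Among the SAURs at 3 weeks, PGSC0003DMG400013549 was the most abundant, at 5.6, 10.9 and 11.8 CPM at NT and 2.08, 2.94 and 2.09 CPM at HT. Its groups did not overlap and NT library 1 was the lowest of the NT group. The log2 change was -1.99 ± 0.37 (edgeR, adjusted p = 0.00244). PGSC0003DMG400013315 was at 0.664, 0.858 and 0.879 CPM at NT and 0.229, 0.172 and 0.348 CPM at HT (log2 change -1.68 ± 0.40, edgeR adjusted p = 0.00625). PGSC0003DMG400028186 was at 0.262, 0.488 and 0.739 CPM at NT and 0.148, 0.158 and 0.0151 CPM at HT (log2 change -2.18 ± 0.72, edgeR adjusted p = 0.0194). Neither overlapped, though the call of PGSC0003DMG400028186 was lost without NT library 3, with an adjusted p of 0.0735.

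PGSC0003DMG400021565 was at 0.0805, 0.566 and 0.599 CPM at NT and 0.0807, 0.0287 and 0.182 CPM at HT. NT library 1 lay within the HT range, so the groups overlapped. Its log2 change was -2.09 ± 0.84 (edgeR, adjusted p = 0.041), a call lost without HT library 1 or 2 or NT library 2 or 3, and it was -2.87 without HT library 3. PGSC0003DMG400021980 was not tested, at 0, 0.663 and 0.339 CPM at NT and 0.0403, 0.0431 and 0 CPM at HT. All 5 SAURs, and all 5 auxin-named transcripts that fell, were lowest among the NT libraries in NT library 1, as were 54.6% of all listed transcripts with a lower HT mean. Of the listed transcripts with a mean of at least 50 counts, 18.9% were more than 2-fold lower in NT library 1 than in either of the others. The 6 listed transcripts of dividing cells summed to 80.0 to 113 CPM at NT and 30.0 to 39.5 CPM at HT, where 2 rose and 4 fell, and the 9 of leaf mesophyll summed to 6523 to 7413 CPM at NT and 2208 to 2616 CPM at HT, where 4 rose and 5 fell. The part of that library and of these lists in the SAUR values was not tested.

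The transcripts that rose at 3 weeks were 1 GH3.3, the efflux carrier and 1 symporter. The auxin efflux carrier component (PGSC0003DMG400006744), a name given to membrane proteins that export auxin from cells, was at 0.0403, 0.0195 and 0.12 CPM at NT and 0.256, 0.459 and 0.318 CPM at HT. All HT libraries were above all NT libraries at a low level. This gave a log2 change of 2.49 ± 0.64 (edgeR, adjusted p = 0.00779; 0.159 with DESeq2 size factors), and it was 3.45 without NT library 3. It was not listed at 8 weeks. A GH3.3 transcript too scarce to test (PGSC0003DMG400010326) was at 0.0805, 0.078 and 0.02 CPM at NT and 0.161, 0.359 and 0.288 CPM at HT.

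The 3 transcripts listed at both ages were followed over all 12 libraries, in CPM on library totals alone for the comparison of ages. Their HT to NT log2 changes and the interaction keep the scaling of the authors' fold changes. These changes therefore differ somewhat from the ratios of the CPM given here. Being listed at both ages fixed that each differed between HT and NT at either age, but not the direction. The ages share no libraries. The interaction and the comparisons of ages use the same libraries that chose these transcripts. Their p-values are therefore not independent of the listing. The auxin:hydrogen symporter (PGSC0003DMG400013649) was at 1.23, 2.48 and 1.23 CPM at NT and 3.77, 10.6 and 7.83 CPM at HT at 3 weeks. At 8 weeks it was at 324, 185 and 236 CPM at NT and 1.83, 8.02 and 29.9 CPM at HT. It was higher at HT at 3 weeks and lower at HT at 8 weeks, without overlap at either age. It had a log2 change of 1.77 ± 0.48 at 3 weeks (edgeR, adjusted p = 0.00917) and -4.33 ± 0.94 at 8 weeks, and the difference between them was -6.10 ± 1.17 (edgeR interaction term, adjusted p = 0.00177). Within NT it rose from 3 to 8 weeks by 7.23 ± 1.01 on the log2 scale (edgeR, adjusted p = 8.06e-05). Within HT the change was 0.84 ± 0.77 (edgeR, adjusted p = 0.556), which turned to -0.59 without HT library 3 at 8 weeks.

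GH3.3 (PGSC0003DMG400024978) was also higher at HT at 3 weeks and lower at HT at 8 weeks. At 3 weeks it was at 0.806, 0.356 and 0.4 CPM at NT and 2.12, 3.13 and 2.26 CPM at HT, and at 8 weeks at 14, 16.1 and 8.69 CPM at NT and 1.73, 0.946 and 1.12 CPM at HT. NT at 8 weeks was the highest group and NT at 3 weeks the lowest, with no overlap between HT and NT at either age. The log2 change was 1.86 ± 0.42 at 3 weeks (edgeR, adjusted p = 0.00504) and -3.46 ± 0.50 at 8 weeks, and the difference was -5.32 ± 0.68 (edgeR interaction term, adjusted p = 0.000261). It rose with age within NT by 4.63 ± 0.52 (edgeR, adjusted p = 2.47e-05). Within HT it changed by -0.98 ± 0.45 (edgeR, adjusted p = 0.207).

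The auxin and ethylene responsive GH3 (PGSC0003DMG400025857) was lower at HT at both ages. It was at 0.42, 1.7 and 1.29 CPM at NT and 0.185, 0.264 and 0.104 CPM at HT at 3 weeks, and at 0.438, 0.722 and 1.46 CPM at NT and 0.105, 0.0601 and 0.235 CPM at HT at 8 weeks. HT lay below NT without overlap at each age, and the ages overlapped within each temperature. On the log2 scale it changed by -3.0 ± 0.62 at 3 weeks (edgeR, adjusted p = 0.0036) and -2.80 ± 0.77 at 8 weeks (edgeR, adjusted p = 0.00934), the latter -3.49 without HT library 3 and -2.22 without NT library 3. The difference between ages was 0.20 ± 1.02 (edgeR interaction term, adjusted p = 0.96), a wide error that leaves both signs possible. Over all transcripts with counts at both ages, 33.7% of 576 were called in the interaction (17.9% lower), 46.2% between ages within NT (31.2% higher) and 7.47% within HT (5.38% higher). Of the 3 auxin-named transcripts, 2 were called lower in the interaction, 2 higher with age within NT and 0 within HT, where edgeR's adjusted p-values were 0.207 to 0.758, DESeq2's Wald test also called 0, and 0 had an unadjusted p under 0.05.

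**Figure D5:**
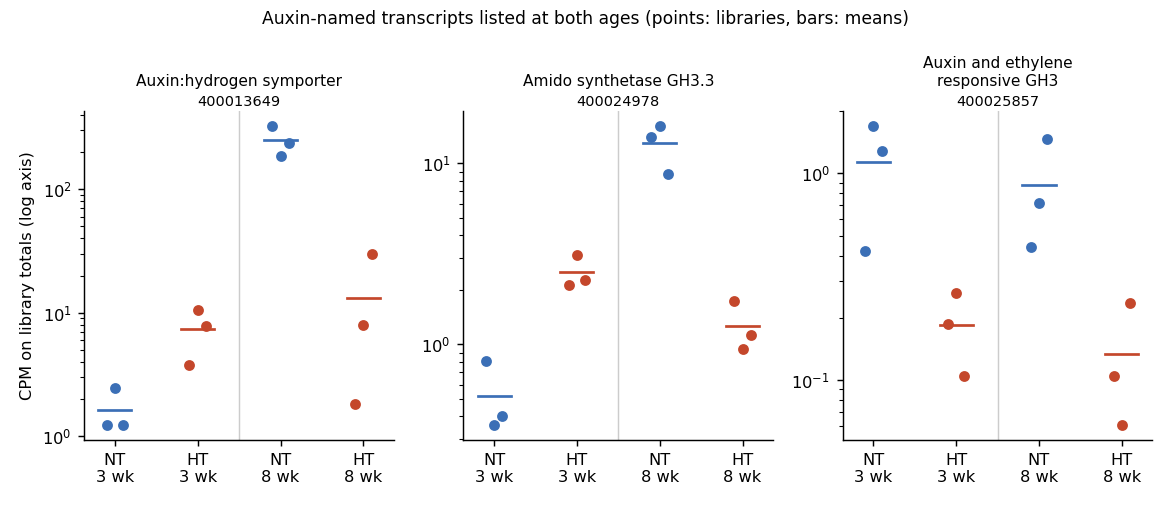
CPM on library totals (vertical, log axis, own scale in each panel) of the 3 auxin-named transcripts listed at both ages, in the 4 groups along the horizontal axis; points are libraries and bars group means. The symporter and GH3.3 are higher at HT at 3 weeks and lower at HT at 8 weeks, and the auxin and ethylene responsive GH3 is lower at HT at both ages.

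Other genes of auxin synthesis, transport, signalling and output, chosen by product name, were few in the tables. At 3 weeks 7 were listed, 5 were tested, 2 rose and 3 fell, and all 5 tested were LOB domain proteins, a family of transcription factors with auxin-induced members that act at organ boundaries and in lateral roots. LOB domain protein PGSC0003DMG400024936 fell from 53.9 ± 25.3 to 8.34 ± 2.53 CPM (SD, n = 3; log2 change -2.69 ± 0.47, edgeR adjusted p = 0.002). LOB domain protein PGSC0003DMG400008649 rose from 0.273 ± 0.136 to 0.953 ± 0.223 CPM (log2 change 1.80 ± 0.46, edgeR adjusted p = 0.0076). At 8 weeks 16 were listed, 11 were tested, 8 rose and 2 fell, beside 59.2% and 38.0% of all listed transcripts tested. Of the 7 listed LOB proteins, 3 were tested, 2 rose and 0 fell, with PGSC0003DMG400025400 not called (edgeR, adjusted p = 0.062). LOB domain-containing protein 6 (PGSC0003DMG400000974) rose from 0, 1 and 0 counts in the NT libraries to 95, 35 and 74 counts in the HT libraries (edgeR, adjusted p = 0.0015), the largest fitted change among these genes, whose size is uncertain with 1 count at NT. All 3 listed proteins of the NPH3 family, which take part in phototropism, rose, and the largest change among them was from 0.532 ± 0.205 to 10.7 ± 3.67 CPM for PGSC0003DMG400002400 (log2 change 4.32 ± 0.56, edgeR adjusted p = 0.0011). Of 3 multidrug resistance transporters, a family whose Arabidopsis members include auxin transporters, 2 rose and PGSC0003DMG400017456 fell from 2.88 ± 0.933 to 0.549 ± 0.275 CPM. A flavin monooxygenase, the enzyme class of YUCCA auxin synthesis, was listed at each age but too scarce to test.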

How the data were processed

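Strand-specific poly(A) libraries were sequenced from potato leaves, per the labels' protocols. The deposited tables, 1 per age, hold raw counts per transcript and library, the larger group mean in RPKM, log2 fold changes and p-values for transcripts the authors selected, per the file headers. No aligner, counter or genome build is given in the sources used here. Strand-specific libraries were made, but whether counting used strand is not given either.

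Library totals (52514661 to 66602938 counts) were solved from counts, transcript lengths and the authors' RPKM. The authors' log2 fold changes were lower than those from totals by a constant, 1.32-fold at 3 weeks and 1.07-fold at 8 weeks, and this offset entered the scaling between HT and NT; comparisons of ages used totals alone. Counts were fitted with edgeR 4.0.16 in R 4.3.3 (quasi-likelihood F test, filterByExpr, no replicate block) over all transcripts of a sheet, with Benjamini-Hochberg adjustment and a threshold of 0.05; the standard error was taken as |log2 change| divided by the square root of F. The scripts were tested on simulated data. DESeq2 1.42.0 served as an alternative. RPKM per library was computed on totals alone. Other alternatives were library totals alone, TMM, no filter, a mean of at least 50 counts, a replicate block, adjustment over the 33777 and 34088 transcripts the authors tested, a threshold of 0.01 and leaving out each library.

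Members and lists were chosen with earlier results of these data known. Named with values per library were all members of roles with 4 or fewer listed, those listed at both ages and, in larger roles, the 4 largest changes in each direction at each age averaging 10 or more counts in the group with the higher level. Some others were added for their level or neighbouring identifiers, after their values were seen. None of the 58 members matched the RefSeq gene table by identifier, and no sequence is shown. Another deposited table, with the transcripts shared by both ages, was not used.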

Additional observations from a re-analysis of the deposited data

Results flagged for a closer look

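The HT effect of 2 transcripts differed between the ages by the interaction term of the edgeR fit over all 4 groups. For the auxin:hydrogen symporter (PGSC0003DMG400013649), the log2 change at 8 weeks minus that at 3 weeks was -6.10 ± 1.17 (edgeR, adjusted p = 0.00177), and it lay between -7.52 and -5.58 with a library left out. For amido synthetase GH3.3 (PGSC0003DMG400024978), it was -5.32 ± 0.68 (edgeR, adjusted p = 0.000261), and lay between -5.78 and -5.11 with a library left out. In both, all 3 HT libraries were above the NT libraries at 3 weeks and below them at 8 weeks. Listing at both ages had already chosen these transcripts by the HT against NT contrast. Groups did not overlap for 89.8% of all listed transcripts at 3 weeks and 93.5% at 8 weeks. With opposite directions at the ages, the cutoffs of the listing alone make the difference large. Of all 576 transcripts tested at both ages, 33.7% were called in the interaction.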

How the results depend on the processing

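Single transcripts named above kept direction and side of the threshold in 661 alternatives, lost the call in 67, gained it in 5 and turned in 7. Choosing members by whole words also gave 58. With DESeq2 size factors, estimated from the listed transcripts alone, 155 of all listed transcripts were called higher at 3 weeks, with 0 members higher; at 8 weeks 1179 were, with 8 members, 1 GH3 and 3 SAURs higher. Adjusting over all transcripts the authors tested left 162 higher and 121 lower at 3 weeks, with 0 and 0 members, and 1781 and 1184 at 8 weeks, with 13 and 10 members, 1 and 2 GH3, and 6 and 4 SAURs. A minimum mean of 50 counts, which tests fewer genes, left 2 members lower at 3 weeks and 7 SAURs higher at 8 weeks. A threshold of 0.01 left 3 members lower at 3 weeks, 13 lower at 8 weeks, 1 GH3 higher and 4 SAURs lower, and 5 higher and 1 lower between ages within HT. TMM gave 154 higher in the interaction, and 110 higher and 222 lower between ages within NT, with 1 member lower; DESeq2 size factors gave 159 lower there. The share of calls that were higher was 46.9% in the interaction and 65.3% with TMM, and 67.7% between ages within NT and 33.1% with TMM. The Wald test of DESeq2 gave 79 higher and 28 lower between ages within HT. For these the cause was not tested beyond the construction named. Using the HT to NT offset between ages, chosen after seeing the data, changed no member's call.

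Correlations of same-numbered NT and HT libraries were 0.19, 0.16 and -0.07 at 3 weeks and -0.07, 0.04 and 0.01 at 8 weeks. Those of differently numbered libraries lay between -0.22 and 0.19 at 3 weeks and between -0.10 and 0.12 at 8 weeks. Whether libraries of the same number belong together was not tested. A replicate block left 3 members lower at 3 weeks, 24 higher and 19 lower at 8 weeks, and 16 higher and 4 lower between ages within HT.

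Leaving out each library gave 3 (without NT library 3) to 6 members lower at 3 weeks and 5 (without NT library 2) to 9 SAURs lower at 8 weeks, and between ages within HT 5 to 69 listed transcripts higher and 2 to 35 lower, the highest counts being without HT library 1 at 8 weeks. The interaction of the auxin and ethylene responsive GH3 (PGSC0003DMG400025857) was 0.20, -0.10 with totals alone, and between -0.49 and 0.79 with a library left out; its change with age within NT lay between -0.963 and 0.036. The change with age of the symporter (PGSC0003DMG400013649) within HT lay between -0.59 and 1.36. Changes smaller than those in the selected tables could not be examined.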
